A study of Mus musculus with 8 samples.

Results

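The genes described here are 8 genes of polyamine metabolism, chosen by symbol from the 17041 genes of the deposited table: Odc1, Azin1, Oaz1, Amd1, Amd2, Srm, Sms and Sat1. They were picked with the group differences in these same 8 libraries in view. Their differences between the groups are therefore given as a description, with a standard error and no p-value. RNA came from the proximal large intestine of 26-week-old ApoE knockout mice, bred germ-free and given a defined bacterial community at 8 weeks of age. The core group (3 mice) carried a community that does not make butyrate, and the other group (5 mice) carried Roseburia intestinalis, which does make it, on top of that core community. The second group is core plus R. intestinalis in the plots and the Roseburia group in the text. Every mouse was an ApoE knockout and every mouse was colonized, so neither a wild-type nor a germ-free group enters a comparison. Of diet, sex and cage the sources used here give nothing. The sample names of the core libraries are numbered 3 to 5, and core samples 1 and 2, if there were any, were not analysed here. The values are the authors' normalized expression values, in which each library was scaled by 1 factor and gene length was not taken into account.

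Polyamines (putrescine, spermidine and spermine) are small positively charged molecules that bind RNA and DNA and that dividing cells, such as those of the intestinal crypt, need in quantity. Ornithine decarboxylase (Odc1) makes putrescine, and S-adenosylmethionine decarboxylase (Amd1, Amd2) makes the aminopropyl donor from which spermidine synthase (Srm) and spermine synthase (Sms) build the longer polyamines. Antizyme (Oaz1) sends ornithine decarboxylase to the proteasome, antizyme inhibitor (Azin1) takes antizyme away from it, and spermidine/spermine acetyltransferase (Sat1) marks polyamines for export or oxidation. Much of this control acts on translation and protein stability, which RNA levels do not show.

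The S-adenosylmethionine decarboxylase pair comes first, because Amd1 stood in the first row of the authors' deposited table. Amd1 lies on chromosome 10 from 40287458 to 40302186 on the minus strand, with 8 exons in the transcript Amd1-201 of GENCODE M21 (build GRCm38). Amd2 lies on the same chromosome and strand from 35708675 to 35711892, and its transcript Amd2-201 has 1 exon. The authors' build was mm9, per the submitters' processing notes, so these positions place the genes and were not joined to the values. The coding sequences of both transcripts are 1005 bases long and differ at 1 base, the substitution G796C, counted from the first base of the start codon with the base of Amd1 first. The stretch around it, from coding position 721 to 871, is shown from the GENCODE M21 transcripts because it holds the one coding base by which a read can be told apart. The capital marks that base.
Amd1: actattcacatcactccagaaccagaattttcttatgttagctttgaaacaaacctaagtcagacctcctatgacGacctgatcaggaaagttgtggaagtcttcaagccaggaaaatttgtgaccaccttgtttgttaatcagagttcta
Amd2: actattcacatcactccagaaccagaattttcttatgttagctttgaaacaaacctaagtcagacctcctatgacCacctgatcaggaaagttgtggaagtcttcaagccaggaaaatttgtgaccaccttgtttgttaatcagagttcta

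Over the whole transcripts (3204 and 3218 bases), 14 of 3204 aligned bases differed and 14 bases lay in gaps. Of all windows of 50 bases in Amd1-201, 86.0% (and 73.2% of windows of 100 bases) occurred unchanged in Amd2-201. Read length is not given in the sources, and both window lengths are only examples. The RefSeq table of GRCm38.p6 gives Amd1 as a synonym of Amd2, and it lists 7 Amd pseudogenes that were not analysed here. Which locus a deposited symbol stands for is thus not certain, and values of Amd1 and Amd2 are given both apart and summed.

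Amd1 was listed at 0 in all 3 core libraries and in Roseburia replicates 4 and 5. It was 0.01 in replicate 2, which is less than 1 read is worth there, 307 in replicate 1 and 236 in replicate 3 of the Roseburia group. Those 2 libraries were also the most deeply sequenced of the 8, at 10813156 and 15351299 estimated reads against 4607491 to 6575880 in the others. Amd1 therefore passed the filter on low values through 2 libraries alone, and its groups overlapped at 0.

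Amd2 was read in every library. In core replicates 1 to 3 it was 1263, 908 and 1028. In Roseburia replicates 1 to 5 it was 144, 852, 693, 876 and 850.0. All 5 of the latter lay below the lowest core value, and the 2 lowest were the libraries in which Amd1 was read. Its log2 difference was −0.87 (SE 0.523), taken as the Roseburia group minus core like all differences here, or −0.38 without Roseburia replicate 1.

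Summed, Amd1 and Amd2 came to 1263, 908 and 1028 in core and to 451, 852, 929, 876 and 850.0 in Roseburia libraries. The groups of the sum overlapped, with replicate 3 of the Roseburia group above core replicate 2. The sum averaged 1067 ± 181 (SD, n = 3) and 791 ± 193 (SD, n = 5), a log2 difference of −0.46 (SE 0.233). Without Roseburia replicate 1 it was −0.27. Amd1 took 68.1% of the sum in that library, 25.4% in replicate 3 and at most 0.00117% in the other 6.

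Expressed as reads, the division of the pair did not fall on whole numbers. In Roseburia replicate 1 the values stood for 459.6 reads of Amd1 and 215.4 of Amd2, which add up to 675.0. In replicate 3 they stood for 516.9 and 1517 reads. The summed value lay within 0.05 of a whole number of reads in 5 of 8 libraries.

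**Figure D1:**
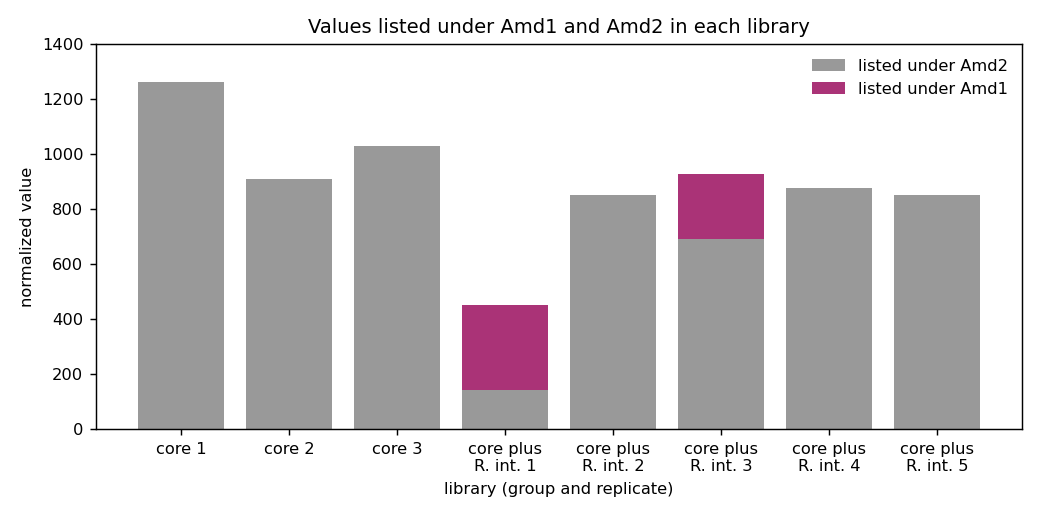
Normalized value listed under Amd2 (grey) and under Amd1 (purple), stacked, in each of the 8 libraries. Amd1 is visible only in Roseburia replicates 1 and 3 (307 and 236), and the stacked height of replicate 1, 451, is the lowest of all libraries.

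The authors' deposited table gives Amd1 a posterior probability of differential expression of 1.00 and a raw fold change of 1087, the largest of its genes, and a posterior fold change of 252. Since core was listed at 0, that raw fold change is not a plain ratio of the listed group means. Its size and rank are therefore not a measured fold. A fold against a group listed at 0 was not computed here. At a posterior probability of at least 0.95 the authors' deposited table calls 0.481% of its genes (0.194% as higher with R. intestinalis), and of the 8 members Amd1 alone. The authors' deposited table puts the other members at posterior probabilities of 0.20 (Sms), 0.02 (Amd2), 0.01 (Odc1, Oaz1 and Srm) and 0.00 (Azin1 and Sat1). With limma on log2(value + 1), 0.0% of the 13020 genes tested passed a Benjamini-Hochberg adjusted p of 0.05. The smallest adjusted p was 0.503, and the unadjusted p was below 0.05 for 8.13% of genes. With limma's library weights 455 genes passed. Group ranges were apart, with no overlap, in 5.84% of the genes tested (3.31% lower and 2.53% higher with R. intestinalis), and among the 8 members in Amd2 alone. Since the choice of members used this contrast, nothing is read from these counts.

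Odc1, the first enzyme of the pathway and the target of antizyme, was 2352, 1772 and 2330.4 in core replicates 1 to 3. In Roseburia replicates 1 to 5 it was 1906, 1926, 1678, 2089 and 1746. The core group held the 2 highest libraries, while core replicate 2 lay inside the range of the other group. Group means were 2152 ± 329 (SD, n = 3) and 1869 ± 162 (SD, n = 5), a log2 difference of −0.20 (SE 0.136).

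Azin1, the antizyme inhibitor, was 2400.4, 1771 and 2321 in core libraries. It was 1558, 2187, 1954, 2420.4 and 2022 in Roseburia libraries, which held both the highest and the lowest value. The log2 difference was −0.10 (SE 0.164), within the spread of either group. The ratio of Azin1 to Odc1 stayed between 0.996 and 1.02 in the 3 core libraries. It was 0.818 in Roseburia replicate 1 and between 1.13 and 1.16 in replicates 2 to 5. These are ratios of deposited values, and the transcripts differ in GC content (39.3% and 52.4%). After the GC correction described below, log2 deviations of Azin1 in core were −0.03, −0.15 and −0.01. Those of Odc1 were 0.36, −0.17 and 0.31. In Roseburia replicate 1 they were 0.02 for Azin1 and −0.25 for Odc1. The narrow core range and the low place of replicate 1 were thus not kept.

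Oaz1, the antizyme, was the one member besides Amd1 with a higher mean when R. intestinalis was present. It was 1203, 1435 and 1401 in core replicates 1 to 3. In Roseburia replicates 1 to 5 it was 2234, 1275, 1719, 1530.3 and 1706. In 4 of 5 of these libraries the value lay above every core library, and replicate 2 lay inside the core range. Means were 1346 ± 125 (SD, n = 3) and 1693 ± 352 (SD, n = 5), a log2 difference of 0.31 (SE 0.171). The ratio of Oaz1 to Odc1, antizyme to its target, averaged 0.641 ± 0.153 in core and 0.914 ± 0.212 in Roseburia libraries, and these ratios overlapped (0.511 to 0.810 and 0.662 to 1.17). After a correction of each library for the GC content of transcripts, 1 of 5 Roseburia libraries had Oaz1 above every core library. The log2 difference of the ratio went from 0.51 to 0.32 under it.

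Srm, spermidine synthase, was 117, 127 and 76.9 in core libraries. It was 130.2, 57.2, 85.0, 90.9 and 74.1 in Roseburia libraries, so the group with R. intestinalis spanned the whole core range. The log2 difference was −0.31 (SE 0.274). Sms, spermine synthase, was 190.5, 169 and 190.6 in core libraries. It was 152, 171, 122, 160.5 and 109 in Roseburia libraries, where replicate 2 alone exceeded the lowest core value. Means of Sms were 183 ± 12.3 (SD, n = 3) and 143 ± 26.4 (SD, n = 5), a log2 difference of −0.38 (SE 0.184). Srm rested on 53.0 to 195 estimated reads per library.

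Sat1, the acetyltransferase of polyamine breakdown, was 889, 664 and 913 in core libraries. It was 575, 825, 727, 827 and 828 in Roseburia libraries. The lowest of these, replicate 1, lay below every core library, and the other 4 lay inside the core range. The log2 difference was −0.12 (SE 0.166).

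**Figure D2:**
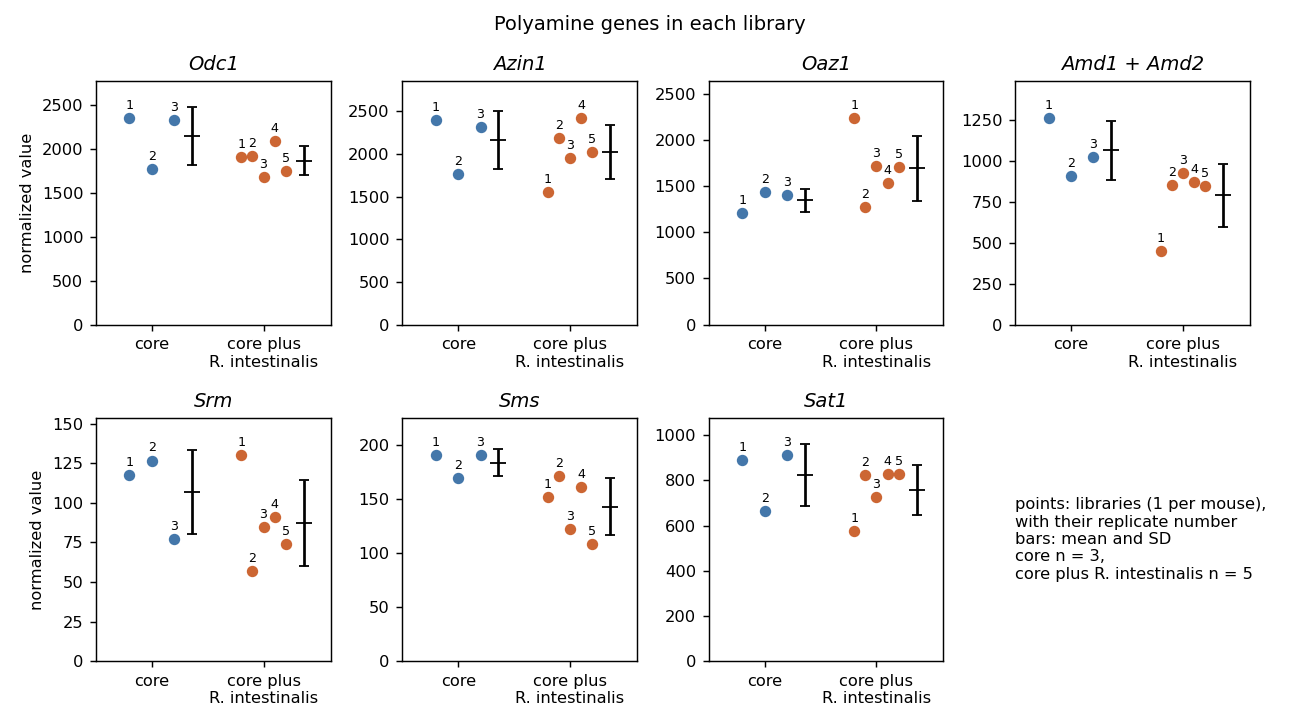
Normalized value of 6 members and of Amd1 plus Amd2 in each library (points, numbered by replicate), with the mean and SD of each group (bars). The groups overlap in each of the 7 panels, and Roseburia replicate 1 is the highest library for Oaz1 (2234) and Srm (130.2) and the lowest for Azin1 (1558), Sat1 (575) and Amd1 plus Amd2 (451).

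Of the 7 members other than Amd1, 6 had a log2 difference below 0 and 1 above 0, with a median of −0.20. The median over all genes tested was 0.00 (−0.00347), and 6568 of these 13020 genes were below 0. Amd2 is counted here by itself, and the summed Amd genes were also below 0 (−0.46). After the GC correction described below, Azin1 (0.10) and Sat1 (0.01) were above 0. Since the members were picked with these differences in view, nothing is read from the count. Leaving out single libraries moved the differences of Odc1 between −0.33 and −0.13, of Sms between −0.45 and −0.28 and of Srm between −0.53 and −0.17. Without Roseburia replicate 1, Oaz1 stood at 0.20, Sat1 at −0.02 and Azin1 at 0.00 (−0.00446). The residual SD of log2 values was 0.168 for Odc1, 0.237 for Azin1 and for Sat1, 0.232 for Sms, 0.253 for Oaz1, 0.415 for Srm and 0.378 for the summed Amd genes.

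Divided by transcript length, which a comparison between genes requires, Oaz1 had the highest level, 1459 normalized units per kilobase on average over the 8 libraries (1123 to 2086). Odc1 followed at 894.5 (760.1 to 1065), Sat1 at 672 (495 to 785) and Azin1 at 427 (320 to 497). The summed Amd genes stood at 278 (140.1 to 393), Srm at 70.9 (42.7 to 97.3) and Sms at 42.5 (29.2 to 51.3). Oaz1 was above, and both synthases were below, every library of the other members, while each neighbouring pair from Odc1 to the Amd sum and the 2 synthases overlapped in range. Lengths are those of the longest protein-coding GENCODE M21 transcript of each symbol, which need not be the one the authors' pipeline used.

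The libraries differed in how their values followed the base composition of transcripts, and the members differ in composition. In Roseburia replicate 1, genes in the lowest GC quintile (32.9% to 44.3%) had a median log2 deviation of −0.37 from the mean of the 8 libraries, and those in the highest quintile (55.6% to 68.4%) one of 0.62. In the other 7 libraries the medians of the highest quintile ran from −0.36 to 0.27. Transcripts of Azin1 (39.3% GC), Amd2 (41.1%), Amd1 (41.4%), Sms (43.5%) and Sat1 (44.3%) are poor in GC. Those of Odc1 (52.4%), Oaz1 (56.9%) and Srm (59.8%) are richer.

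**Figure D3:**
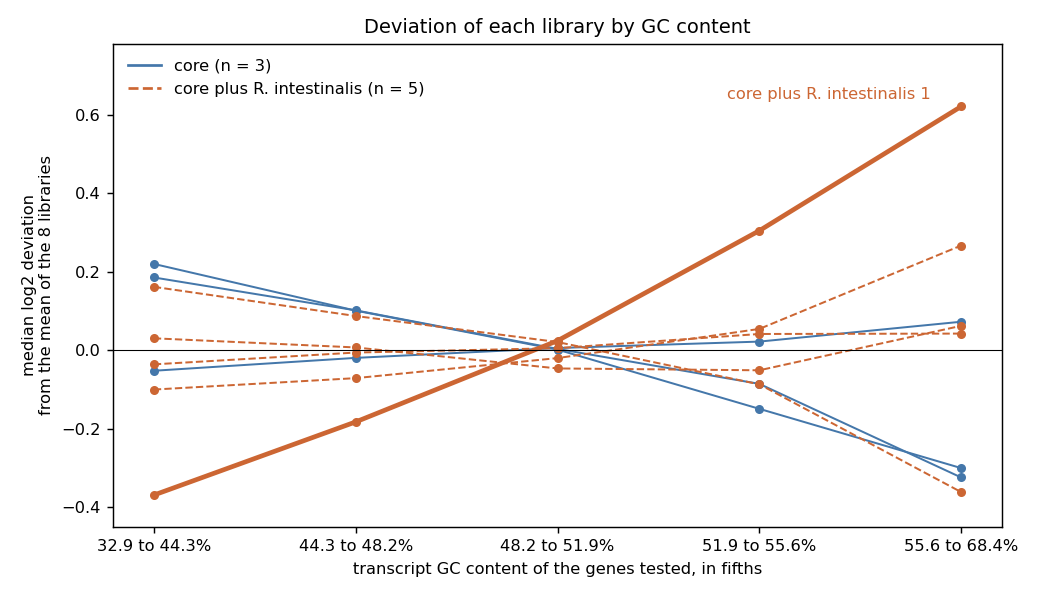
Median log2 deviation of the genes tested in each library, by quintile of transcript GC content, for core (blue) and the Roseburia group (orange). Roseburia replicate 1, the thick line, runs from −0.37 in the lowest quintile to 0.62 in the highest, the widest span of the 8 libraries.

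After a correction of each library for GC content, chosen after seeing the data, the members' differences shifted. Oaz1 went from 0.31 to 0.05 (SE 0.105), and its deviation in Roseburia replicate 1 from 0.54 to 0.01. Azin1 went from −0.10 to 0.10 (SE 0.109) and Sat1 from −0.12 to 0.01 (SE 0.119), so both changed sign and stayed within about 1 standard error of 0. The summed Amd genes went from −0.46 to −0.28 (SE 0.162), with a deviation in replicate 1 that went from −0.94 to −0.56, still the lowest of the 8. Sms went from −0.38 to −0.23 (SE 0.167) and Odc1 from −0.20 to −0.27 (SE 0.155).

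Srm went from −0.31 to −0.66 (SE 0.183). Its corrected deviations ran between 0.18 and 0.68 in core and between −0.65 and −0.12 in Roseburia libraries. Srm was then the only member whose groups did not overlap. Amd2 no longer was one, by a slight margin (lowest core deviation 0.335, highest Roseburia deviation 0.337). Among all 11750 genes with a GC value, the corrected ranges did not overlap in 5.71%.

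Partner genes of the pathway were taken from 6 lists by function, 32 symbols in all, of which 24 were tested. With limma, 0 of the 24 had an adjusted p below 0.05 (0.588 to 0.967), against 0.0% of all genes tested. An unadjusted p below 0.05 was found for 2 of the 24, a share near the 8.13% of all genes tested. With library weights 0 passed and 7 had an unadjusted p below 0.05, as did 29.4% of all genes tested under those weights. Of the 24, 17 had a log2 difference above 0 and 7 below, with a median of 0.13. Over all 13020 genes tested, 6452 were above 0 and 6568 below. After the GC correction 17 of the 24 partners were again above 0, with a median of 0.13. Whether the partners differ from all genes in direction was not tested. The 2 with an unadjusted p below 0.05 without weights, Atp13a2 and Slc18b1, both belong to the transport list. That limma count depended on single libraries. It was 0 without core replicate 1 or without Roseburia replicate 1, and 5 without Roseburia replicate 2.

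Transporters that carry polyamines, or are reported to, had 5 of 6 tested members above 0 and a median log2 difference of 0.41, or 6 of 6 and 0.31 after the GC correction. Atp13a2, a lysosomal polyamine exporter, averaged 59.6 ± 12.7 in core and 91.9 ± 25.7 in Roseburia libraries, with a log2 difference of 0.60 that was 0.21 after the GC correction (its transcript is 62.4% GC). Slc3a2, a heavy chain of amino acid exchangers that is reported to take part in polyamine transport, averaged 236 ± 40.1 and 336 ± 95.2 (log2 difference 0.48, SE 0.229), and its groups overlapped. Slc18b1, a vesicular polyamine transporter listed under its older clone name, was 223, 227 and 178 in core and 319, 246, 248, 262 and 256 in Roseburia libraries. It was the only one of the 24 partners whose groups did not overlap (5.84% of all genes). Its log2 difference was 0.35 (SE 0.151), and the 3 transporters had the same limma adjusted p of 0.588. All 3 were highest in Roseburia replicate 1 (Atp13a2 130, Slc3a2 478 and Slc18b1 319).

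Genes of putrescine supply had 2 of 3 tested members above 0. Arg2, the mitochondrial arginase that yields ornithine, ran between 6.39 and 35.6 in core and between 6.01 and 73.2 in Roseburia libraries. Oat, which takes ornithine to glutamate semialdehyde, averaged 1839 ± 550 and 1727 ± 691, and Arg1, the cytosolic arginase, was near the lower limit of the test. Arg1 is counted above 0 by its log2 difference of 0.16 (SE 0.776), although its mean value was lower with R. intestinalis (14.0 and 10.2), where core replicate 3 alone stood at 35.6. The groups overlapped for these 3 genes, and the log2 difference of Arg2, 0.83, was below its SE of 0.842.

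Of the genes of acetylation and oxidation, 3 of 4 tested were above 0, and 2 of 4 after the GC correction. Aoc1, the diamine oxidase that breaks down putrescine and is listed under its older name Abp1, averaged 2179 ± 437 and 2741 ± 544 (log2 difference 0.33, SE 0.192). Smox, spermine oxidase, averaged 80.5 ± 14.2 and 91.3 ± 31.8, and Sat2, a relative of Sat1, 26.7 ± 4.97 and 22.6 ± 2.19. Each of these differences was smaller than 2 times its standard error.

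Hypusine is a modified lysine made from spermidine on the translation factor eIF5A, and 3 of 4 tested genes of this step were above 0. After the GC correction 2 of 4 were, and all 4 lay between −0.09 and 0.07. Dohh, the hydroxylase of its last step, averaged 119 ± 33.2 and 172 ± 67.3, a log2 difference of 0.47 (SE 0.331) that was 0.07 after the GC correction (62.5% GC). Dhps, which transfers the aminobutyl group of spermidine, averaged 94.5 ± 15.8 and 103 ± 10.1, and Eif5a2, a relative of Eif5a, 38.9 ± 1.15 and 35.9 ± 13.5.

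The donor side, S-adenosylmethionine supply and salvage of methylthioadenosine (the by-product of both synthases), had 4 of 7 tested genes above 0, and 5 of 7 after the GC correction. Mri1, a salvage isomerase, averaged 41.0 ± 10.7 and 60.4 ± 13.9 (log2 difference 0.55, SE 0.268). Mtap, the phosphorylase that opens the salvage route, averaged 86.3 ± 17.4 and 67.7 ± 19.9 (log2 difference −0.39, SE 0.296), and Adi1, its dioxygenase, 205 ± 32.0 and 241 ± 38.3. Of the remaining antizyme genes, Oaz3 and Azin2 (listed as Adc) were below the filter. Satl1 and Slc22a2 were not analysed here, nor was Oaz2, since RefSeq gives the listed symbol Oaz2-ps both to a pseudogene and as an older name of Oaz2.

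**Figure D4:**
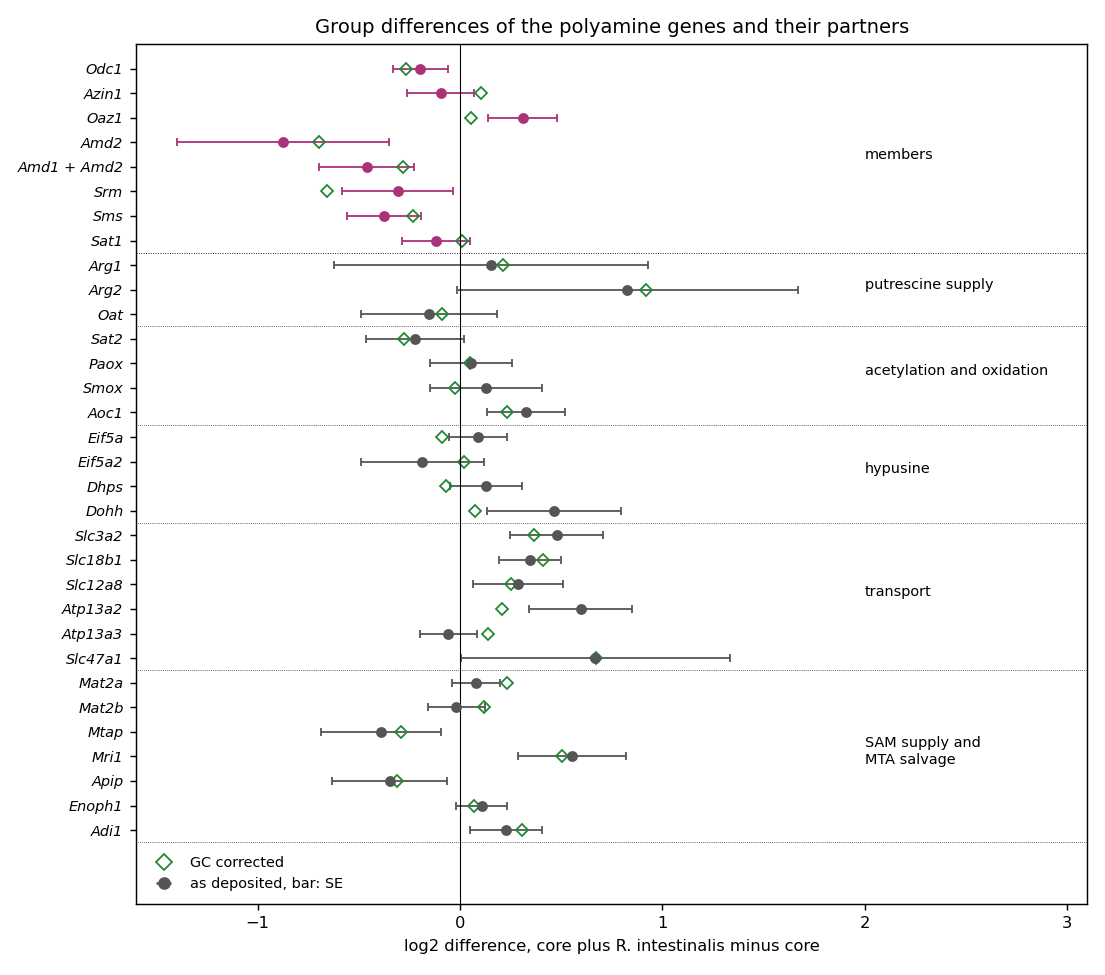
Log2 difference of 7 members, of Amd1 plus Amd2 and of the 24 partners tested (circles, with SE bars), and the same after the GC correction (green diamonds), ordered by list. Most circles of members lie left of 0 and those of 5 of 6 transporters right of it. Of all 13020 genes tested, 6452 had a difference above 0. The diamonds of Oaz1 (0.05), Azin1 (0.10) and Sat1 (0.01) lie near 0, on its right.

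The genes most like a member in pattern were found by the root mean square difference of log2 deviations over the 8 libraries, among 9527 genes with a mean of at least 50. For Odc1 these were Wdhd1 (0.0458), Nedd8 (0.0543) and Dad1 (0.0569), against a root mean square deviation of 0.174 of Odc1 itself. For Sat1 they were Cutc (0.0380), Mtmr2 (0.0469) and Actr2 (0.0508), and Azin1 came in place 16 (0.0706). For the summed Amd genes they were Eef1e1 (0.108), Tra2b (0.110) and Zbtb41 (0.110). The last 3 were lowest in Roseburia replicate 1, and their transcripts have 44.1%, 41.8% and 36.9% GC. All these values come from the same 8 libraries at the same depths, so likeness is a description only.

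In whole tissue, fewer cells of a type and less RNA per cell cannot be told apart. All 8 colon epithelium markers were above the filter in these libraries, among them Cdx2, Vil1, Epcam, Car1 and Muc2, and 0 were listed at 0. The sum of 6 markers of dividing cells ran between 3488 and 4561 in core and between 2908 and 3945 in Roseburia libraries, lowest in replicate 1 of the latter. Mki67 (1291) and Cdk1 (161) were lowest in Roseburia replicate 5 instead, and Mcm2 was highest in replicate 1 (214). Each of the 6 had a lower mean with R. intestinalis. Only Mki67 had groups apart, at 1518 to 1977 in core and 1291 to 1509 in Roseburia libraries (5.84% of all genes tested had groups apart). None of the marker sums was corrected for GC content. Smooth muscle markers, 5 in all, summed to between 113619 and 159425 in core and between 76817 and 131409 in Roseburia libraries. Each had a lower mean with R. intestinalis, but only Acta2 and Tagln had groups apart. Des was highest of all in Roseburia replicate 1 (18478). The 5 fibroblast markers summed to 7137 to 8287 in core libraries, without overlap with the 4330.1 to 6400 of Roseburia libraries. Taken singly, each had a lower mean with R. intestinalis, but only Col1a2 and Col3a1 had groups apart. Dcn and Lum were highest of all in Roseburia replicate 2 (4201 and 451), and Col1a1 in Roseburia replicate 1 (594). For 4 adipocyte markers the sum lay between 1122 and 2706 in core libraries, against 318 to 1452 with R. intestinalis. Of these, Cfd alone had groups apart. Plin1, which was below the filter, had a higher mean with R. intestinalis (3.27 in core and 4.91). The sum of 5 leukocyte markers ran between 4464 and 7896 in core and between 2354 and 6076 in Roseburia libraries, and at least 84.1% of it was Jchain, a plasma cell gene. The other 4 (Ptprc, Cd3e, Cd79a and Cd68) summed to 294 to 445 in core and to 203 to 886 in the other group, and none of them had a lower mean with R. intestinalis. Of the genes listed for position along the intestine, Hoxb13 ran from 2.16 to 663 over the 8 libraries, and Slc10a2 from 13.9 to 949. The part of these shifts in the members' differences was not tested.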

How the data were processed

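Messenger RNA libraries, 1 per mouse, were read by their group in the labels. Per the submitters' processing notes, Bowtie2, RSEM 1.2.23 and the build mm9 were used, with no role or order given. The deposited values are a normalized signal, estimated reads divided by 1 factor for each library, as the values show and per the file headers. The authors' posterior probability is a score, and the authors' fold changes are on a linear scale. The ratio of group means was within 2% or 0.01 of the deposited raw ratio in 100.0% of genes whose core mean reached 10. Amd1, listed at 0 in core, is not among those genes.

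The value of 1 read was estimated from the steps on which low values cluster (79.9% to 84.2% of values under 30 within 0.05 of a step), which gave depths of 4607491 to 15351299 reads. Genes with a mean of at least 10 (13020) were fitted as log2(value + 1) with limma 3.58.1 in R 4.3.3, with a mean-variance trend and Benjamini-Hochberg adjustment over all genes tested. Nothing says that mice of a group were housed apart, so p-values measure the spread between these libraries. The script was tested on simulated data. Alternatives were other pseudocounts, filters, scalings, weights, blocks, no trend, the Amd genes summed and each library left out, and a GC correction (lowess, span 0.3; 90.2% of genes tested had a GC value) was added after seeing the data. Members and lists were chosen with earlier results of these data known. Named were all members, up to 3 tested genes per partner list with the smallest p, and the 3 genes nearest to Odc1, Sat1 and the Amd sum. Older symbols were matched through RefSeq synonyms (29 of 32 partner symbols). Of the lists, 1 partner gene and 1 marker gene are not reported here and were left out of the list counts.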

Additional observations from a re-analysis of the deposited data

Results flagged for a closer look

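In groups of 5 libraries, the lowest or highest value was compared with its nearest neighbour (Dixon's criterion, 0.71 for 5 libraries), which chance exceeds in about 1 of 20 groups. Among 24 genes or sums looked at, 3 had a library that stood apart, and in each it was Roseburia replicate 1. Amd2 was 144 there, with a gap of 0.75 of the range. The sum of Amd1 and Amd2 was 451 there, with a gap of 0.835 of the range. Slc18b1, listed as 1110021L09Rik, was 319 there, the highest of its group, with a gap of 0.784 of the range.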

How the results depend on the processing

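The count of 0 genes past the threshold became 455 with limma's library weights, which gave Roseburia replicate 3 a weight of 7.98. Of the partner genes 0 passed under every alternative run, and their smallest adjusted p ran from 0.0549 (library weights) to 0.978 (without core replicate 1). With single libraries left out the count ran from 0 to 1, the 1 being Rangrf without core replicate 1. The 82 genes in the authors' deposited table became 51 at a posterior probability of at least 0.99. With the replicate block 0 genes passed (395 with an unadjusted p below 0.05, against 1058). Deviations of libraries with the same replicate number had correlations of −0.115, −0.53 and −0.07, and other pairs ran from −0.494 to 0.479. Pairs with the same number in the sample name stood at −0.011, −0.407 and −0.494. Such correlations cannot show whether the numbers pair mice, and nothing is concluded from them. Of 167 alternative values of members, 165 lay within 1 residual SD of those reported. The exceptions were Odc1 at −0.36 with library weights and Oaz1 at 0.05 after the GC correction, while Azin1 (0.10, and 0.03 with the block) and Sat1 (0.01) changed sign under that correction. A change of filter or trend cannot move a difference, nor can summing the Amd genes move that of another member. Part of the 165 was therefore fixed in advance. The residual SD is also a wide measure (0.927 for Amd2, against an SE of 0.523). Amd1 gets no fold, being listed at 0 in core. With 3 core mice, and 53.0 estimated reads of Srm in Roseburia replicate 2, small differences are not detectable here.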

Other observations

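Amd1 was 1 of 10 genes with a value of at most 0.05 in some library and of at least 100 in another, a set picked out after the values were seen. The authors' deposited table calls 3 of them at a posterior probability of at least 0.95, namely Amd1, Gm1987 and Gm4535. Gm1987 was 449 in Roseburia replicate 2 and listed at 0 in the other 7 libraries. Gm4535 was 247 in core replicate 2, 195 in core replicate 3 and 49.1 in Roseburia replicate 3, and was listed at 0 elsewhere. Gm14430 and Gm14434 held the same value in each of the 8 libraries, between 0 and 191. Reg3b, an antimicrobial lectin, lay between 0 and 766 in core and between 6.68 and 1173 in Roseburia libraries.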
